A study of Mus musculus with 12 samples.

Results

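Ependymal cells line the brain ventricles with tufts of beating cilia, and 10 genes that mark these cells were followed here: Foxj1, Ccdc153, Rarres2, Tmem212, Dynlrb2, Rsph1, Mia, Cfap126, Tekt4 and Spag17. They were taken by symbol from the 54532 genes of the expression table, and each symbol matched 1 gene; the rule uses no measured value, but the set was chosen with earlier results of these data known. The data are bulk RNA sequencing of mouse lateral septum, a forebrain nucleus at the wall of the lateral ventricles, in a study of inflammatory pain. All mice were labelled wild type (WT) and all libraries day 3; 6 libraries came from mice given saline and 6 from mice given CFA, an abbreviation the labels do not spell out and which in pain research usually means complete Freund's adjuvant, an oil emulsion with killed mycobacteria that causes lasting local inflammation. The labels used here give no age, strain or sex, and do not say whether a library is 1 animal or a pool, and the p-values therefore reflect the library-to-library spread, part of which may be technical.

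A motile cilium is built on a ring of doublet microtubules around a central pair. Dynein arms on the doublets drive the beat, radial spokes connect them to the central pair, and tektins and other inner proteins stiffen the doublet wall. In ependymal cells the transcription factor FOXJ1, with RFX factors, switches on the genes of this machine, and the beat moves cerebrospinal fluid along the ventricle wall. Epithelial cells of the choroid plexus carry cilia and express part of the same programme.

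The promoters of the members are shown first. The members, apart from Tekt4, varied closely together from library to library (below). Whether promoter sequence bears on this was not tested. RefSeq promoter windows on GRCm38.p6, from 250 bases before to 50 after a start site, were at hand for 7 of the 10 genes, all but Foxj1, Rarres2 and Rsph1. The core of the RFX binding site, GTTGCC, searched on both strands, was in the windows of 3 of these 7 genes (Ccdc153, Dynlrb2 and Tekt4) and in 12.5% of all 32851 windows. A mirrored form, GTTGCNNNGCAAC, which overlaps the core in Dynlrb2 and was chosen after these sequences had been seen, was in the windows of Dynlrb2 and Tekt4 and in 0.225% of all windows. The RFX inverted repeat in the exact form GTTNCCNNGGNAAC (0.451% of windows) and the forkhead core GTAAACA (3.65%) were in none of the 7. Apart from the mirrored form, repeats with other spacing or letters were not searched. Each stretch below reads 5′ to 3′ on the gene's own strand, which is the plus strand for all 3, with the core or its mirrored form in capitals. The stretches are Dynlrb2 at chr8:116504904-116504976, Ccdc153 at chr9:44240465-44240550 and Tekt4 at chr17:25471494-25471586.
Dynlrb2: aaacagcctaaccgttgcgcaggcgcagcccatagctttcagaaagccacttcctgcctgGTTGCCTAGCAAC
Ccdc153: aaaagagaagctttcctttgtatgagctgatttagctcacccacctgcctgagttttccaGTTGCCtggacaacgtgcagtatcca
Tekt4: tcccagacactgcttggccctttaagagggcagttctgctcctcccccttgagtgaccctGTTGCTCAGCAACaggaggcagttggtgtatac
The capitals begin 51 bases before the RefSeq start site in Dynlrb2, 152 bases before it in Ccdc153 and 36 bases before it in Tekt4. In Tekt4 the core GTTGCC itself lies on the minus strand, 8 bases after the start site. These matches describe letters in a window and say nothing on binding.

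The libraries held 33.6 to 39.2 M reads, recovered from the steps of the FPKM values (FPKM counts fragments against gene length and library depth). Lateral septum neuron markers were present in every library: all 11 listed genes passed the filter of at least 1 FPKM in at least 6 libraries, led by Zic1 (saline 106 ± 12.0 FPKM, CFA 99.0 ± 18.6 FPKM, SD, n = 6). Ttr, which defines choroid plexus epithelium, reached 2259 FPKM in saline 3 and 701 FPKM in saline 5; the other 10 libraries had 4.50 to 66.6 FPKM. Xist, transcribed from the inactive X chromosome, exceeded 1 FPKM in 5 of the CFA libraries but in 2 of those from saline. Ddx3y, a gene of the Y chromosome, had 13.9 to 15.4 FPKM in the 5 libraries without Xist. In the 7 with Xist it had at most 0.0202 FPKM. The sexes read from these genes were thus unevenly spread over the groups, and sex and treatment are partly mixed in the comparison of CFA with saline. Over all genes 4 of 13345 (0.0300%) passed an adjusted p of 0.05 by limma, 2 higher in CFA (0.0150%) and 2 lower; leaving out 1 library moved that count between 1 and 11 (1 without saline 5 or CFA 6, 2 without saline 2 or saline 4, 10 without CFA 1, 11 without saline 3).

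Of the 10 genes, 8 passed the filter, each with at least 1 FPKM in all 12 libraries, and Spag17 and Mia did not. In order of level per length over the 12 libraries, Foxj1 stood at 17.8 ± 4.87 FPKM (SD, n = 12), Tmem212 at 13.5 ± 5.20, Rsph1 at 12.5 ± 3.43, Ccdc153 at 8.92 ± 2.52, Dynlrb2 at 8.597 ± 2.57, Rarres2 at 3.86 ± 1.24, Cfap126 at 3.39 ± 0.855, Tekt4 at 2.44 ± 0.564, Spag17 at 0.403 ± 0.166 and Mia at 0.0163 ± 0.0345. Neighbours in this order that differed by less than the larger of their SDs were Foxj1 and Tmem212, Tmem212 and Rsph1, Ccdc153 and Dynlrb2, and Rarres2 and Cfap126. Foxj1 was nevertheless above Tmem212 in 12 of 12 libraries, whereas Rarres2 was above Cfap126 in 7.

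**Figure D1:**
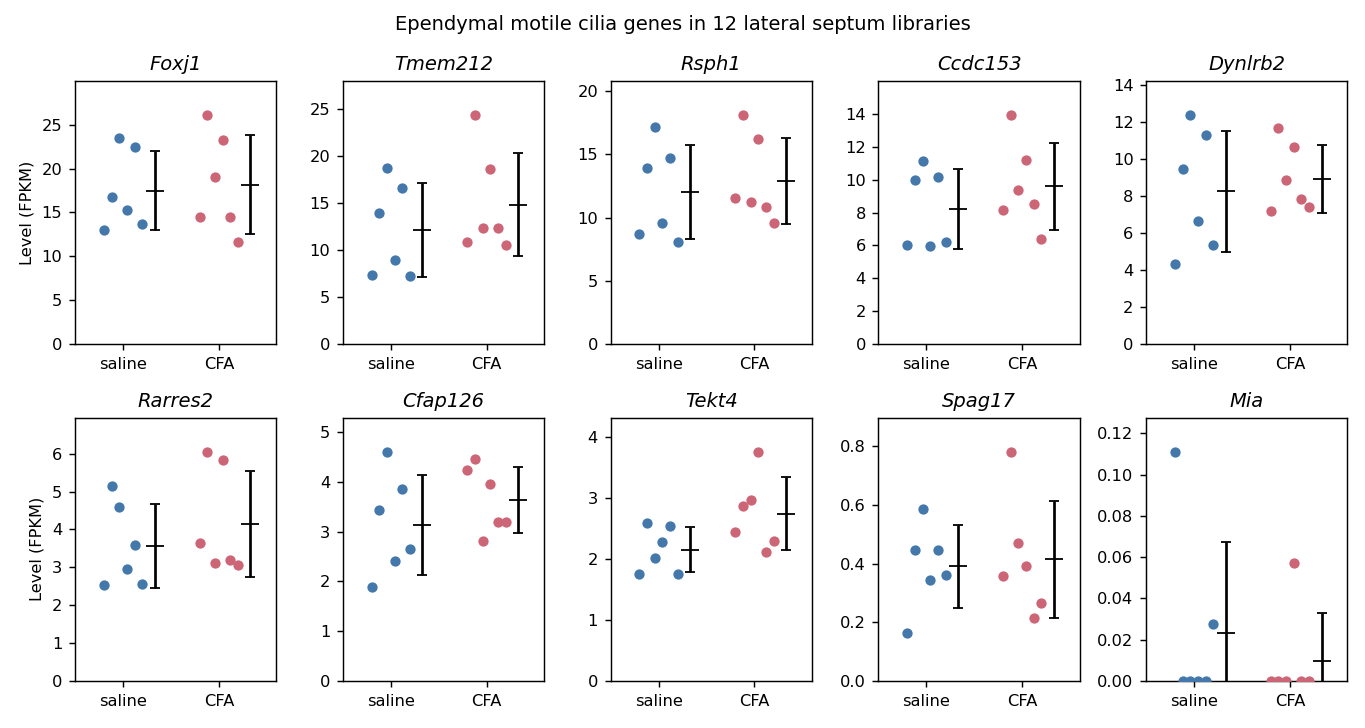
Levels in FPKM of the 10 genes, 1 point per library, 6 saline (blue) and 6 CFA (red), with the mean and SD as a bar beside each group; each panel has its own axis from 0. The groups overlap in every panel, and Mia lies at 0 in 9 of 12 libraries.

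Foxj1, the master regulator of motile cilium formation (chromosome 11, 116330704 to 116335399, minus strand, mm10), ranged in saline from 13.03 through a median of 16.0 to 23.5 FPKM and in CFA from 11.6 through 16.8 to 26.1 FPKM. Its highest values were in CFA 2, saline 3, CFA 4 and saline 5, its lowest in CFA 6 and saline 1, so both ends held libraries of both groups. The difference between CFA and saline was 0.04 on the log2(FPKM + 1) scale (SE 0.19, 95% interval -0.38 to 0.45, limma adjusted p = 0.980). As a ratio on that scale the interval runs from 0.768 to 1.37. With 1135 to 2537 reads per library, counting error for Foxj1 was about 2.42% of the level, against a spread between libraries of 27.4%.

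Among the genes of the axoneme, the microtubule core of the cilium, Rsph1, a protein of the radial spoke head (chromosome 17, 31255019 to 31277356, minus strand), ranged in saline from 8.11 through 11.7 to 17.2 FPKM and in CFA from 9.60 through 11.4 to 18.1 FPKM. Its difference was 0.11 (SE 0.19, limma adjusted p = 0.937), and 5 of 6 CFA libraries lay within the saline range. Tekt4, a tektin of the doublet microtubule wall (chromosome 17, 25471590 to 25476594, plus strand), ranged in saline from 1.75 through 2.14 to 2.58 FPKM and in CFA from 2.11 through 2.65 to 3.75 FPKM. CFA 2, CFA 3 and CFA 4 lay above every saline library and the other 3 within the saline range. The difference of Tekt4 was 0.24 (SE 0.11, 95% interval 0.01 to 0.47) with an unadjusted p of 0.0415 by limma, which 7.67% of all genes tested passed (3.11% as higher in CFA), and an adjusted p of 0.640; with Xist as a covariate it was 0.18 (adjusted p = 0.877) and over the 7 libraries with Xist 0.035 (adjusted p = 0.999).

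Dynlrb2, a roadblock-type light chain of dynein motors (chromosome 8, 116504974 to 116515915, plus strand), ranged in saline from 4.31 through 8.08 to 12.4 FPKM and in CFA from 7.20 through 8.37 to 11.7 FPKM. All 6 CFA libraries fell inside the saline range, with saline 1, saline 4 and saline 6 below and saline 3 above every CFA library. The difference was 0.16 (SE 0.21, limma adjusted p = 0.901). Its paralog Dynlrb1, which serves dyneins in cells at large, stood at 124 ± 2.67 FPKM (saline) and 124 ± 9.88 FPKM (CFA; SD, n = 6), and varied by 5.57% between libraries against 29.8% for Dynlrb2.

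Cfap126, also called Flattop, which acts in the placing of basal bodies (chromosome 1, 171113918 to 171126967, plus strand), ranged in saline from 1.88 through 3.04 to 4.60 FPKM and in CFA from 2.81 through 3.58 to 4.45 FPKM. Every CFA library lay inside the saline range (0.19, SE 0.15, limma adjusted p = 0.813). Ccdc153, a coiled-coil protein widely used as an ependymal marker (chromosome 9, 44240676 to 44247306, plus strand), ranged in saline from 5.96 through 8.10 to 11.1 FPKM and in CFA from 6.39 through 8.94 to 13.9 FPKM. CFA 2 and CFA 4 exceeded the saline range (0.20, SE 0.19, limma adjusted p = 0.848). Spag17, a large protein of the central pair (chromosome 3, 99885406 to 100143322, plus strand), was under 1 FPKM in all 12 libraries, from 0.162 through 0.405 to 0.587 FPKM in saline and from 0.216 through 0.376 to 0.781 in CFA, and was under the filter; in a fit without the filter its difference was 0.018 (limma adjusted p = 0.973). Its 50 to 246 reads per library spread over 8489 bases; the lowest level was in saline 1, also the lowest library for 4 of the 8 tested members, and the highest in CFA 2, also the highest for 5. In GENCODE M21, 9.66% of the exonic bases of Spag17 also belong to exons of Wdr3 and 6.08% to exons of Spag17os. Both lie on the opposite strand, and reads of those stretches cannot be assigned with certainty.

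The remaining members are membrane or secreted proteins. Tmem212, a transmembrane protein and ependymal marker (chromosome 3, 27866066 to 27896368, minus strand), had the widest spread of the 8, from 7.24 through 11.4 to 18.8 FPKM in saline and from 10.6 through 12.3 to 24.3 FPKM in CFA. CFA 2 lay above the saline range and the other 5 CFA libraries within it (0.29, SE 0.26, 95% interval -0.26 to 0.84, limma adjusted p = 0.833). Rarres2 encodes chemerin, a secreted attractant of immune cells (chromosome 6, 48569696 to 48572789, minus strand), and ranged in saline from 2.53 through 3.28 to 5.14 FPKM and in CFA from 3.06 through 3.41 to 6.04 FPKM. CFA 2 and CFA 4 stood above the saline libraries (0.17, SE 0.18, limma adjusted p = 0.873). Of the exonic bases of Rarres2, 33.6% also belong to exons of Lrrc61 on the opposite strand in GENCODE M21; the strand setting of the counting is not given in the sources used here, so the reads of that stretch cannot be assigned with certainty.

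Mia, a small secreted protein known from cartilage and melanoma (chromosome 7, 27179742 to 27181157, minus strand), had 7 reads in all, 4 in saline 1, 1 in saline 6 and 2 in CFA 4. At this level Mia says nothing of ependymal cells here; the other 9 genes had reads in all 12 libraries. In GENCODE M21 the gene Gm21983 overlaps Mia on the same strand and shares 41.2% of its exonic bases; Gm21983 itself had 0 reads in every library, and reads on the shared stretch cannot be assigned with certainty.

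In all, 0 of the 8 members tested passed an adjusted p of 0.05, where 0.0300% of all genes did, and 0 had groups that did not overlap, against 0.495% of all genes. All 8 differences were positive, between 0.04 and 0.29 with a median of 0.18, beside a median of -0.00427 over the 13345 genes, of which 48.0% were positive. Because the members vary together (below), their signs are not 8 separate observations. The signs also depended on which libraries entered: over the 7 libraries with Xist (2 saline, 5 CFA) 6 of 8 were negative (median -0.084), and with Xist as a covariate 4 of 8 were (median 0.013). Without saline 3 and saline 5, the libraries high in Ttr, the median was 0.35, and 0 of 8 passed (lowest adjusted p = 0.553). The intervals of the 8 genes together reach from a ratio of 0.768 to one of 1.79 on the FPKM + 1 scale. In bulk tissue a difference in the number of ependymal cells cannot be told apart from one in RNA per cell.

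**Figure D2:**
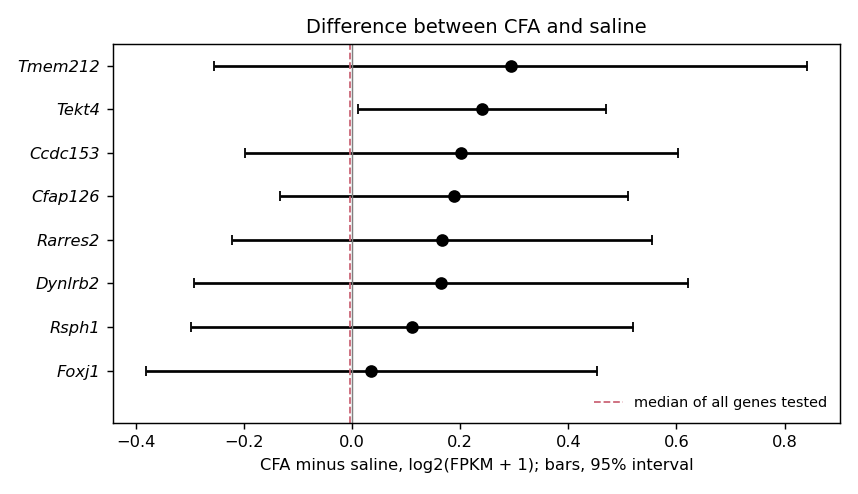
Difference between CFA and saline on the log2(FPKM + 1) scale for the 8 genes past the filter, with 95% intervals from limma (6 libraries a group); the dashed line is the median of all genes tested. All 8 points lie right of 0, and the intervals of 7 include 0, that of Tekt4 starting at 0.01.

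The libraries differed from each other by far more than the groups did. Across the 12 libraries the highest value of a member was 2.15 to 3.36 times its lowest, and the spread was 23.1% to 38.5% of the mean, where counting alone would give 2.42% to 8.52%. CFA 2 and CFA 4 were among the 4 highest libraries for 8 of 8 members, and saline 3 for 7. At the other end, saline 1 and saline 6 were among the 4 lowest for 8 of 8, and saline 4 for 6. Summed over the 8 members the level fell from 107 FPKM in CFA 2 to 45.7 in saline 1. By the mean of the members the 5 highest libraries were CFA 2, CFA 4, saline 3, saline 5 and saline 2, and the 3 lowest were saline 4, saline 6 and saline 1, just below CFA 6. Ttr did not follow this order throughout, with 11.9 FPKM in CFA 2 and 66.6 in saline 1, the highest and the lowest library by the members.

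**Figure D3:**
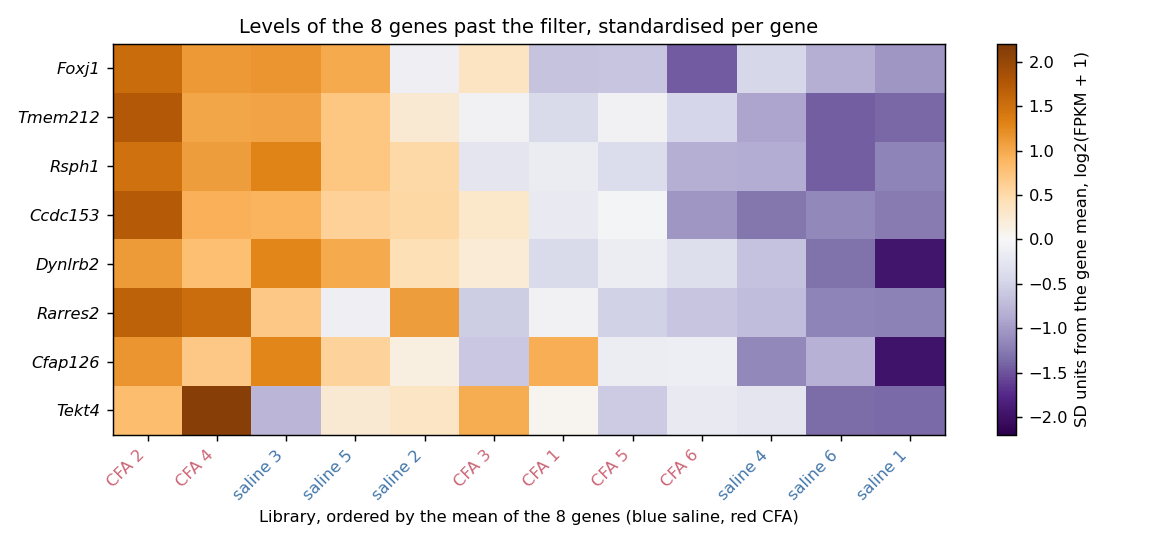
Levels of the 8 genes in the 12 libraries, in SD units from each gene's own mean of log2(FPKM + 1); libraries are ordered from left to right by the mean of the genes, with saline names in blue and CFA names in red. Columns are mostly of 1 colour from top to bottom; Tekt4 departs in saline 3 and Foxj1 is lowest in CFA 6.

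The members moved up and down together. Over the 28 pairs of the 8 genes, Pearson's r across the 12 libraries was 0.48 to 0.97 (median 0.84) and Spearman's rho 0.43 to 0.98 (median 0.87). Of the pairs, 27 passed an adjusted p of 0.05 for r and 25 for rho (permutation test, 100000 resamples, two-sided, Benjamini-Hochberg over 28). The closest pair was Tmem212 and Rsph1 (r = 0.97, rho = 0.98, permutation p = 1e-05 for each, the smallest these resamples can give, n = 12 libraries). Foxj1 followed Rsph1 (r = 0.91, rho = 0.87, adjusted permutation p = 3.64e-04 and 8.60e-04), Ccdc153 (r = 0.90, rho = 0.86) and Tmem212 (r = 0.89, rho = 0.91) closely. Tekt4 followed least: its 7 pairs had r of 0.48 to 0.69, and Cfap126 with Tekt4 was the pair that missed the threshold for r (r = 0.48, rho = 0.43, adjusted permutation p = 0.116 and 0.168).

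The pattern was present in each group. Within the 6 saline libraries the median r over the 28 pairs was 0.91 and the lowest 0.50, and within the 6 CFA libraries 0.86 and 0.27. In the 7 libraries with Xist r was 0.50 to 0.97 (median 0.78) and in the 5 without it 0.15 to 0.99 (median 0.92), positive for 28 of 28 pairs in both. After leaving out the 2 libraries farthest from the median of the first gene of a pair, r was 0.30 to 0.96 (median 0.80). The lowest were Dynlrb2 with Tekt4 (0.30), Rarres2 with Tekt4 (0.43) and Foxj1 with Cfap126 (0.48), whose r fell without those libraries. Leaving them out narrows the range of the first gene, which can itself lower r. One component took up 83.6% of the variance of the 8 standardised genes. Subtracting the mean of the other 7 members narrowed the SD of Rsph1 over the libraries from 0.36 to 0.08 on the log2(FPKM + 1) scale and that of Ccdc153 from 0.37 to 0.10, while that of Tekt4 went from 0.23 to 0.27. Tekt4 had the lowest level of the 8 (2.44 FPKM) and the largest counting error (8.52%). The added 1 narrows the spread of low genes, and the subtracted mean was not scaled to it. How far this accounts for the departure of Tekt4 was not tested.

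Other genes of motile cilia were then examined by their place in the cilium, with lists that hold none of the 10. In 9 lists of motile cilia and ependymal genes, 152 genes were in the table and 102 passed the filter. None of the 102 passed an adjusted p of 0.05 (0.0300% of all genes did), and 2 had an unadjusted p under 0.05 by limma, 1 higher and 1 lower (7.67% of all genes). Of the 102, 65 were positive and 37 negative, with a median of 0.04. The medians of the separate structures lay close to 0: inner dynein arm 0.07 (9 of 10 positive), central pair 0.05 (8 of 11), tektins and other microtubule inner proteins 0.05 (8 of 15), radial spoke 0.03 (5 of 10), dynein assembly factors 0.015 (5 of 9), the nexin link -0.03 (4 of 10) and the outer dynein arm -0.04 (3 of 8). The 21 tested genes of the list of other ependymal genes had the highest median, 0.10, with 17 positive.

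Named by the smallest p in their lists, Ak8, an adenylate kinase placed with the radial spokes, had 1.35 ± 0.340 FPKM with saline against 1.95 ± 0.600 with CFA (SD, n = 6; difference 0.32, limma adjusted p = 0.623). Cfap300, which helps in the assembly of dynein arms, had 9.78 ± 1.49 FPKM with saline against 8.09 ± 0.861 with CFA (-0.24, limma adjusted p = 0.525). Ccdc39, which sets the spacing of inner arms, was 2.36 ± 0.328 and 2.72 ± 0.452 FPKM (0.14, limma adjusted p = 0.767). Cfap46 of the central pair was 1.28 ± 0.231 and 1.51 ± 0.221 FPKM (0.14, limma adjusted p = 0.740). Ccdc151, an outer arm docking protein, was 3.73 ± 0.606 and 3.32 ± 0.462 FPKM (-0.13, limma adjusted p = 0.779). The dynein assembly factor gene Zmynd10 was 2.15 ± 0.367 and 2.39 ± 0.429 FPKM (0.10, limma adjusted p = 0.851).

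Library by library, most structural lists followed Foxj1. Pearson's r between Foxj1 and a list's mean over the 12 libraries was 0.93 for dynein assembly factors (rho = 0.93, adjusted permutation p = 4.00e-04 over 20 relations), 0.92 for the inner dynein arm (rho = 0.89), 0.92 for the nexin link (rho = 0.88), 0.91 for the central pair (rho = 0.94), 0.91 for tektins and inner proteins (rho = 0.94), 0.86 for the radial spoke (rho = 0.81) and 0.86 for the outer arm (rho = 0.80). For these 7 lists r stayed between 0.75 and 0.92 without the 2 libraries farthest from the median of Foxj1, and ranged upward from 0.92 within saline and from 0.85 within CFA. Intraflagellar transport genes, which build primary and motile cilia alike, followed less (r = 0.63, adjusted permutation p = 0.0459, rho = 0.62, adjusted permutation p = 0.0513). For them r was 0.42 without the 2 farthest libraries and 0.56 without saline 3 and saline 5. Leaving out the libraries farthest in Foxj1 narrows its range, which can itself lower r. The mean of the 8 tested genes on the list of upstream regulators of multiciliated cells did not follow Foxj1 detectably (r = 0.33, rho = 0.32, adjusted permutation p = 0.353 and 0.365; r = 0.84 within saline and -0.0058 within CFA). The listed regulators under the filter did not enter that mean.

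**Figure D4:**
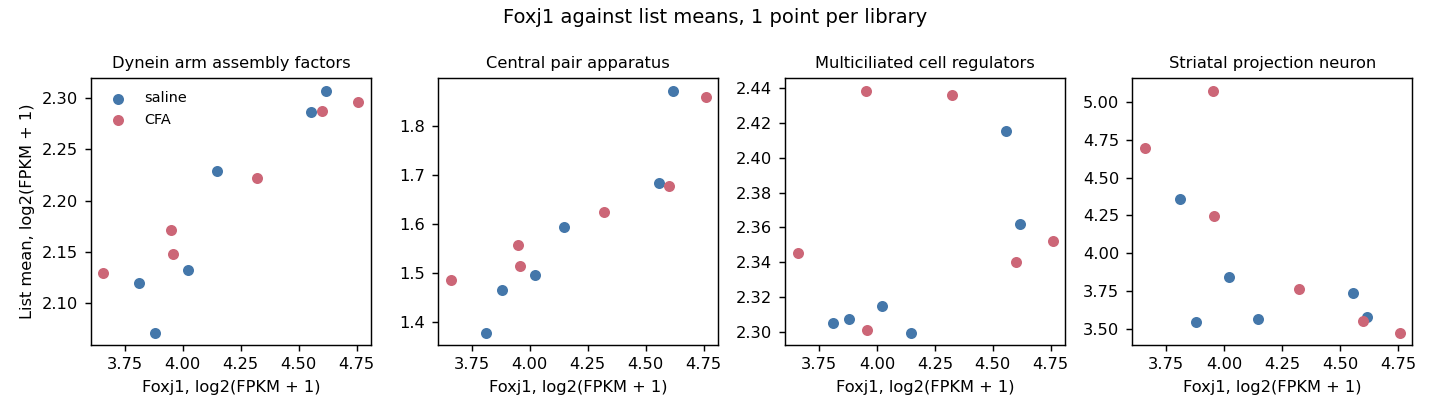
Foxj1 (horizontal axis) against the mean of 4 gene lists (vertical axes), all on the log2(FPKM + 1) scale, 1 point per library, saline blue and CFA red; axes do not start at 0 and differ between panels. Dynein assembly and central pair genes climb with Foxj1 (r = 0.93 and 0.91), the mean of the regulators past the filter does not (r = 0.33), and striatal markers descend (r = -0.67).

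The regulator list splits by level. Its 8 tested genes are Rfx1, Rfx2, Rfx3, Rfx4, Rfx7, E2f4, E2f5 and Fank1, most of them expressed in many cell types. Rfx2, which cooperates with FOXJ1, was the closest to the members among them (r = 0.60 with the mean of the 8 standardised members, n = 12). It stood near the filter, at 0.680 to 1.54 FPKM. The other RFX genes had r of 0.19 (Rfx1), 0.059 (Rfx7), -0.21 (Rfx4) and -0.34 (Rfx3). Fank1 had 0.38, E2f4 0.18 and E2f5 -0.16. The other 8 were under the filter: Gmnc, Mcidas, Ccno, Cdc20b, Deup1 and Myb, which act while a cell makes its many basal bodies, and Trp73 and Foxn4. Their means over the 12 libraries ranged from 0.00748 FPKM for Foxn4 to 0.980 for Trp73. Gmnc, which starts the multiciliated programme, had 0.219 ± 0.377 FPKM with saline, where 1 library reached 0.980, and 0.0745 ± 0.0338 with CFA (SD, n = 6).

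By the rule of highest r with the mean of the 8 standardised members over the 12 libraries, the most similar of the other genes tested included Ak7 (0.97), Ttc21a (0.96), Cfap161 (0.96), 2410004P03Rik (0.95), 1700001C02Rik (0.95), Hydin (0.94), Tm4sf1 (0.94), Cfap65 (0.93) and Lrrc23 (0.93). They share libraries and scaling with the members. Of the first 50 genes by this rule, 23 were in the 9 lists of motile cilia and ependymal genes, while these lists make up 0.765% of the genes ranked. Ak7, an adenylate kinase of cilia, ranged from 3.28 to 8.29 FPKM, and Hydin, a giant protein of the central pair, from 0.703 to 1.67 FPKM. Of the 102 listed genes, 35 had r above 0.8 (median r 0.71), as did 77 of the 13235 other genes (median r -0.016). None of the 9 named genes passed the test of CFA against saline (limma, adjusted p of 0.779 and above), with differences of 0.00499 for Lrrc23 to 0.25 for Ak7.

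**Figure D5:**
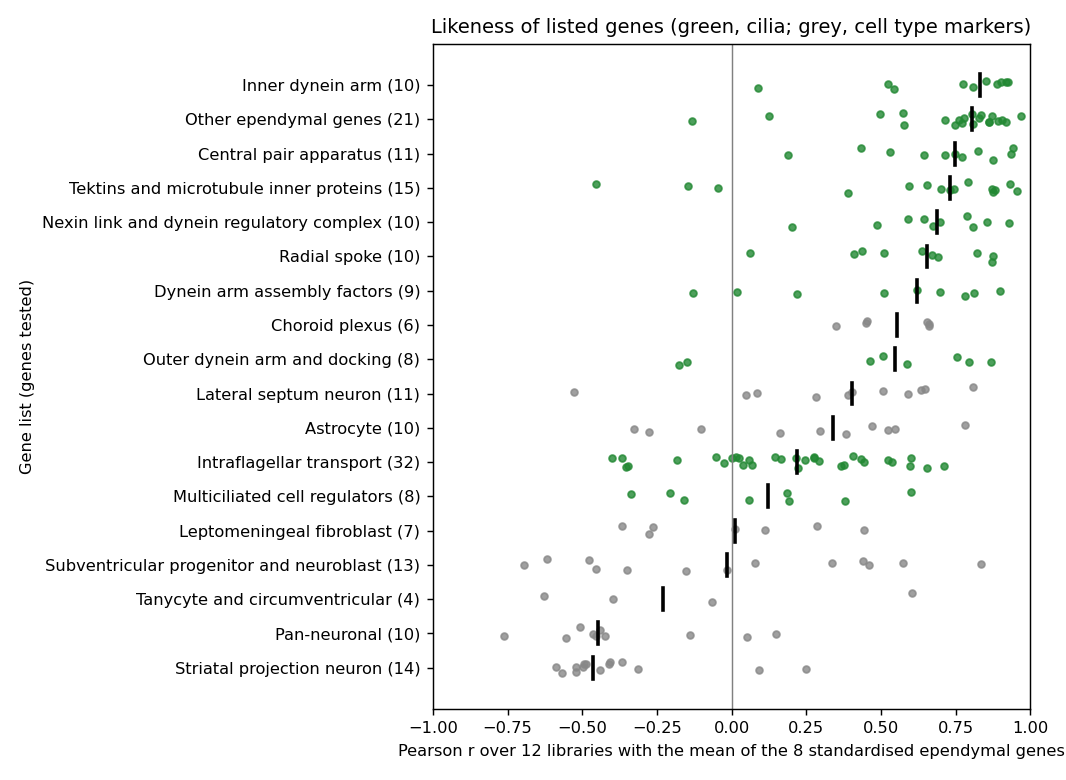
Pearson's r over 12 libraries between each tested gene and the mean of the 8 standardised ependymal genes, 1 point per gene, by list (number of genes tested in brackets); black bars are list medians, green lists are of cilia and grey lists of cell type markers. Inner dynein arm genes have the highest median (0.83), intraflagellar transport (0.22) and regulator genes (0.12) lie near 0, and striatal markers the lowest (-0.46).

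Markers of neighbouring tissue moved with the ependymal genes to different degrees. Choroid plexus markers had a median difference between CFA and saline of -0.43 (0 of 6 tested positive), opposite in sign to the members. The other 6 of the 12 listed markers (Folr1, Kl, Kcne2, Slc4a5, Aqp1 and Kcnj13) were under the filter. The summed level of the list was 60.5 to 2741 FPKM in saline and 52.7 to 119 in CFA. None of the 6 tested markers passed the limma test (lowest adjusted p = 0.719). Their mean on the log2(FPKM + 1) scale was highest in saline 3 (5.80) and saline 5 (4.72), against 2.59 to 3.54 in the other libraries. Their mean followed Foxj1 (r = 0.64, rho = 0.71, adjusted permutation p = 0.0233 and 0.0238 over 20 relations; 0.74 without saline 3 and saline 5). Striatal projection neuron markers, with 14 of 14 positive (median 0.38), summed to 272 to 449 FPKM in saline and 267 to 718 in CFA. None of the 14 passed the limma test (lowest adjusted p = 0.401). Their mean was highest in CFA 1 (5.08) and CFA 6 (4.70), and saline 1 (4.36) lay above the other CFA libraries (3.47 to 4.25). This mean ran against Foxj1 (r = -0.67, rho = -0.66, adjusted permutation p = 0.0239 and 0.0374), with r = -0.47 within saline and -0.88 within CFA. Lateral septum neuron markers (summed level 250 to 330 FPKM in saline, 228 to 347 in CFA; median difference -0.13) and astrocyte markers (899 to 973 and 778 to 967 FPKM; median difference -0.04) had list means that ran with Foxj1 (r = 0.70 and 0.67, rho = 0.66 and 0.71, adjusted permutation p = 0.0239 and 0.0226). Neither list moved as one. With the mean of the 8 members, septum genes had r from -0.53 (Nts) to 0.81 (Matn2), with a median of 0.40. Astrocyte genes had r from -0.33 (Aldh1l1) to 0.78 (Gfap), with a median of 0.34 and 3 of 10 negative.

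The mean of markers of subventricular progenitors and neuroblasts, cells just beneath the ependyma, did not follow Foxj1 detectably over the 12 libraries (r = -0.066, rho = -0.0070, adjusted permutation p = 0.836). Within saline r was 0.49 and within CFA -0.59. The genes did not move as one: with the mean of the 8 members r ran from -0.69 (Mki67) to 0.83 (Igfbpl1). The median difference of the list was -0.07 (4 of 13 positive). Cd24a, which both ependymal cells and neuroblasts express, stands in that list as well as in the ependymal one. Leptomeningeal markers were low, with 7 of 10 past the filter (summed level 9.64 to 19.6 FPKM in saline, 9.90 to 15.0 in CFA). Their mean did not follow Foxj1 detectably over the 12 libraries either (r = 0.14, rho = 0.042, adjusted permutation p = 0.706). For this list r was 0.63 within saline and -0.43 within CFA. Tanycyte markers (4 of 7 past the filter, summed level 27.5 to 46.1 FPKM in saline and 25.5 to 54.6 in CFA) had a list mean that ran against Foxj1 (r = -0.68, rho = -0.68, adjusted permutation p = 0.0245 and 0.0345). These 4 genes did not move as one: with the mean of the 8 members Crym, which ranged from 2.79 to 31.7 FPKM, had r = -0.63, Lhx2 -0.40, Frzb -0.064 and Col23a1 0.61. For pan-neuronal markers no relation to Foxj1 was detectable over the 12 libraries (r = -0.22, rho = -0.22, adjusted permutation p = 0.550 and 0.554; -0.89 within saline and 0.39 within CFA). The part of these other cell types in the members' values was not tested.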

How the data were processed

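RNA of 12 lateral septum libraries was analysed. The authors deposited FPKM per library with a gene length; the submitters' processing notes name HISAT2 2.0.5 and mm10. Which counter, strand setting and annotation release were used is not given in the sources used here. FPKM times gene length came in whole steps, giving reads per gene (100% of values within 0.01 read of a whole number). The median ratio factors of the deposited FPKM, over 19107 genes above 0 in all libraries, were equal in the 12 libraries (1.01, relative spread 1.57e-09), so median ratio scaling changed no sign and no call. A further 6 columns of per-sample values matched no sample and were not used.

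Genes with at least 1 FPKM in at least 6 libraries were tested by limma 3.58.1 (R 4.3.3) on log2(FPKM + 1) with a mean-variance trend, two-sided, Benjamini-Hochberg adjusted over 13345 genes. This scale understates changes of low genes. Correlations used permutation tests. The fit and the permutation test were tested on simulated data. The gene lists, like the members, were chosen with earlier results of these data known. The rule for named genes took all members, in each cilia list the 2 tested genes with the smallest p, in each marker list the 2 with the highest mean, and the 10 genes most like the members, of which 1 is not reported here; not all of these are printed, and other genes were named after their values were seen. Python 3.11.15, pandas 2.3.3, numpy 2.4.6, scipy 1.17.1 and matplotlib 3.10.9 were used.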

Additional observations from a re-analysis of the deposited data

Results flagged for a closer look

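Mia in saline 1 (0.111 FPKM, 4 reads) stood apart from the other saline libraries, with a gap to the next of 0.751 of the group's range, above Dixon's 95% critical value for 6 samples. Mia in CFA 4 (0.0570 FPKM, 2 reads) was the only CFA library above 0. The gap is then 1 times the range whatever the value, so this flag carries no information on its size. These were 2 flags among 20 groups checked, and both rest on at most 4 reads. Chance flags about 1 in 20 groups of normally spread values, a rate that does not hold for groups mostly at 0.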

How the results depend on the processing

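Under each of the 24 alternatives, 0 of the members tested passed (8, or 9 with a filter of 0.1 FPKM and 10 with none); Cfap126 and Tekt4 kept a positive sign in all of them. With Xist as a covariate the sign turned for Foxj1 (-0.021), Rarres2 (-0.015), Dynlrb2 (-0.0076) and Rsph1 (-0.054). Over the libraries with Xist alone it turned for Foxj1 (-0.17), Ccdc153 (-0.10), Rarres2 (-0.031), Tmem212 (-0.063), Dynlrb2 (-0.21) and Rsph1 (-0.14); that comparison has 2 saline libraries, and the cause was not tested. Leaving out 1 library gave Foxj1 between -0.074 and 0.15, and the median of the members between 0.093 and 0.26. The number of genes called over the whole table, 4, was 1 with Xist as a covariate, 1 over the libraries with Xist alone, 2 with no filter, 2 without the trend, 1 with the replicate block, and 1 to 11 without 1 library. Over all genes tested, the deviations of same-numbered libraries from their group means correlated at -0.012 to 0.16. Of the 6 saline libraries, 2 correlated best with their own number. Each number holds 1 saline and 1 CFA library, so the replicate block cannot move a difference and the median of the members stays at 0.18. It changes the SE alone, which fell for every member tested but Cfap126. For Ccdc153 the SE went from 0.19 to 0.13, for Foxj1 from 0.19 to 0.16 and for Cfap126 from 0.15 to 0.16. The count of correlated pairs was 27 with a pseudocount of 0.1, on residuals from the group means and, chosen after seeing the data, without saline 3 and saline 5, and 21 to 28 without 1 library. Mia had 7 reads in all, and the reason for so few was not tested.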
